A study of Homo sapiens with 6 samples.

Results

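Genes of MHC class I antigen presentation were followed by RNA sequencing in LX-2, a human cell line derived from hepatic stellate cells and grown without limit. The 9 genes were taken by exact name from the deposited tables: the heavy chain genes HLA-B, HLA-C and HLA-E, the light chain gene B2M, the peptide transporter genes TAP1 and TAP2, the tapasin gene TAPBP, the trimming peptidase gene ERAP1 and the class I transactivator gene NLRC5. They are 9 of 21533 gene rows, and all 9 passed the filter on low counts that left 12973 genes tested. One group was transfected with an siRNA against PERK and the other with a control siRNA (n = 3 each). Both groups then received palmitic acid, a saturated fatty acid, and RNA was collected 24 h later. PERK, encoded by EIF2AK3, is a kinase of the endoplasmic reticulum membrane that lowers protein synthesis when unfolded proteins build up. The sources used here give no dose of palmitic acid. Cells without palmitic acid or without siRNA were not analysed here, so every difference below is one between siRNAs in lipid-treated cells of a single line. Whether replicates were separate cultures is not labelled, so each p-value covers the spread among replicates alone, and that spread may be technical.

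Class I molecules show short peptides from inside the cell to CD8 T cells. A polymorphic heavy chain pairs with beta-2 microglobulin in the endoplasmic reticulum, where calreticulin, tapasin and the TAP transporter hold it until a peptide binds. HLA-B and HLA-C are classical heavy chains, while HLA-E is a non-classical one that mostly carries leader peptides of other class I chains and is read by the CD94/NKG2A receptor of natural killer cells. NLRC5 is recruited to the shared upstream boxes of class I genes by RFX, CREB/ATF and NF-Y proteins, and interferon raises most genes of the pathway through JAK kinases and IRF1. Hepatic stellate cells have been reported to present antigen in liver.

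The upstream sequences of 5 of the 9 genes are printed here because the first pair belongs to heavy chains that were both lower with PERK siRNA, while the others set a gene that was higher (B2M) beside 2 that were lower (TAP1 and TAPBP). Each run is the 250 bases before the gene's start in RefSeq (GRCh38.p14), 5′ to 3′ on the gene's own strand. Capitals mark matches, on either strand, to the interferon response element core GAAA-NN-GAAA, the CCAAT box, the X2 box core TGACGC and the NF-κB consensus, and adjoining or overlapping matches run together.
HLA-B: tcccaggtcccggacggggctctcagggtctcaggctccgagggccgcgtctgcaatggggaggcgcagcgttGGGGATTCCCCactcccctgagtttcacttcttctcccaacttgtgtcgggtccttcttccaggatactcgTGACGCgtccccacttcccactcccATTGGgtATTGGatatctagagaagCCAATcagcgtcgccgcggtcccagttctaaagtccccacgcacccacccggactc
HLA-C: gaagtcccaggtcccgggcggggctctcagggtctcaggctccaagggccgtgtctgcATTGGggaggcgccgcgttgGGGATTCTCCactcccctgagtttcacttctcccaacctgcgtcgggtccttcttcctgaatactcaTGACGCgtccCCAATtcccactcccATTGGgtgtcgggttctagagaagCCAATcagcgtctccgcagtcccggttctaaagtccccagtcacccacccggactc
B2M: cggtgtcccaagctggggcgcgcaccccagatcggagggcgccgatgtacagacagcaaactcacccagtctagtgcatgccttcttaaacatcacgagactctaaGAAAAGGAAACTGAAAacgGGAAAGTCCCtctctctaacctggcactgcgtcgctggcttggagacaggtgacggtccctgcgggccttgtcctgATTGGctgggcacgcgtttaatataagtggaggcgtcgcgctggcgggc
TAP1: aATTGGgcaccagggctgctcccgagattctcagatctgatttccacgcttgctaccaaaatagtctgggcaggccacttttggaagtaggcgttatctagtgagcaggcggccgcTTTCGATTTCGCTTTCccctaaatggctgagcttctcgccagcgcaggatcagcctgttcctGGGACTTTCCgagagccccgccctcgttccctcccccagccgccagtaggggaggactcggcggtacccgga
TAPBP: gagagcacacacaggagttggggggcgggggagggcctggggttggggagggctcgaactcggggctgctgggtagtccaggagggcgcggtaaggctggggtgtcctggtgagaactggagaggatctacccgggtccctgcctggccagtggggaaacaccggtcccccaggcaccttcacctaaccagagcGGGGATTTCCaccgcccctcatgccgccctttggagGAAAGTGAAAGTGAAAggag
The HLA-B run lies at chr6:31357180-31357429 on the minus strand and the HLA-C run at chr6:31272093-31272342 on the minus strand. The B2M run lies at chr15:44711267-44711516 on the plus strand, that of TAP1 at chr6:32853705-32853954 on the minus strand and that of TAPBP at chr6:33314079-33314328 on the minus strand.

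Of the 9 genes 7 had an entry in the RefSeq promoter table, and HLA-E and NLRC5 had none. Motifs were searched over the whole table window, which runs from 250 bases before to 50 bases after the start. HLA-B and HLA-C were identical at 269 of 304 alignment columns (88.5%). Both held the X2 box core, as did TAP2, against 9.11% of 34943 promoters of the same length. The interferon response element core was matched in B2M, TAP1, TAP2, TAPBP and ERAP1, against 3.57% of all promoters, and neither HLA-B nor HLA-C held these exact letters. CCAAT was matched in 5 of the 7 genes, with 3 matches in HLA-B and 4 in HLA-C, against 34.6% of promoters. The NF-κB consensus was matched in 6 of the 7 genes, all but TAP2, against 11.3% of promoters. The 5 genes with the interferon core included 1 that was higher with PERK siRNA, 3 that were lower and ERAP1, which did not pass the test. A match describes letters and not a bound site. LX-2's own alleles of these polymorphic genes were not analysed here.

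The samples held 17937141 to 19535253 exon reads with PERK siRNA and 18560051 to 19585872 with control siRNA, and a count of 3 reads, the detection floor used here, was worth 0.153 to 0.167 CPM, which covers counting error only. The targeted mRNA, EIF2AK3, was at 2.29, 2.63 and 2.90 TPM in PERK siRNA samples, against 6.82, 6.92 and 7.28 TPM in control siRNA samples. TPM is reads per exon length scaled to a constant total, so it can be compared between genes. The groups did not overlap, and 37.5% of the control level remained (log2 fold change -1.42, SE 0.10, adjusted p = 3.0e-13 by edgeR's quasi-likelihood test). All changes below come from that test, with p-values adjusted over all 12973 genes and called at 0.05. Of stellate and mesenchymal markers 6 of 8 reached 1 TPM, and the list summed to 5083 to 5102 TPM with PERK siRNA and 4579.7 to 4712 TPM with control siRNA. Single markers differed in both directions. ACTA2 was at 54.2 to 61.1 TPM with PERK siRNA and 13.2 to 17.5 TPM with control siRNA, COL1A2 at 17.6 to 19.6 TPM with PERK siRNA and 7.96 to 8.20 TPM with control siRNA, and VIM at 3188 to 3213 TPM with PERK siRNA and 2662 to 2725 TPM with control siRNA. COL3A1 was at 130.2 to 135 TPM with PERK siRNA and 237 to 257 TPM with control siRNA, and PDGFRB at 22.9 to 24.1 TPM with PERK siRNA and 25.1 to 27.5 TPM with control siRNA. COL1A1 overlapped, at 1644 to 1669.7 TPM with PERK siRNA and 1623 to 1694 TPM with control siRNA, and LRAT and DES, other stellate markers, were near 0. Of 10 leukocyte and antigen presenting cell markers 3 reached 1 TPM (CD68, CD14 and CD83), their summed list level being 137 to 139.8 TPM with PERK siRNA and 154 to 162 TPM with control siRNA. The defining leukocyte genes CD3E, CD80 and CD86 had no reads, and PTPRC stayed under 1 TPM in every sample. The hepatocyte markers ALB, APOA1 and TTR were at 0. SERPINA1, the other listed hepatocyte marker, was at 2.82 to 3.55 TPM with PERK siRNA and 3.10 to 4.04 TPM with control siRNA. Cholangiocyte markers summed to 14.0 to 15.0 TPM with PERK siRNA and 23.8 to 27.7 TPM with control siRNA, mostly from KRT7. Endothelial ones summed to 1.60 to 1.98 TPM with PERK siRNA and 5.61 to 5.88 TPM with control siRNA. That difference was mostly PECAM1, at 0.248 to 0.357 TPM with PERK siRNA and 4.41 to 4.46 TPM with control siRNA. KDR went the other way, at 1.05 to 1.35 TPM with PERK siRNA and 0.79 to 0.971 TPM with control siRNA. CDH5 and VWF stayed near 0. The part of any such difference in the results was not tested. In bulk RNA a smaller share of cells with an mRNA and less of that mRNA per cell cannot be told apart.

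The class I genes differed in opposite directions between the siRNAs. HLA-E and B2M were higher, and HLA-B, HLA-C, TAP1, TAP2, TAPBP and NLRC5 were lower, by 16 to 34.5% of the control level in the fitted fold change. ERAP1 did not pass the test. This gives 2 of 9 genes higher and 6 of 9 lower, against a background in which 34.4% of all tested genes were called higher and 35.0% lower. The median log2 fold change of the 9 genes was -0.30, and that of all tested genes 0.004. Against a 1.2-fold change instead of no change, 1 was higher (HLA-E) and 4 lower (HLA-C, TAP1, TAPBP and NLRC5), where 18.1% of all tested genes were called in each direction. In 8 of the 9 genes the ranges of the groups did not overlap in normalised CPM, reads scaled by library size and TMM factor, as in 71.8% of all tested genes. On unique exon reads 2 were higher and 5 lower, where 35.6% of the tested genes were called in each direction.

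**Figure D1:**
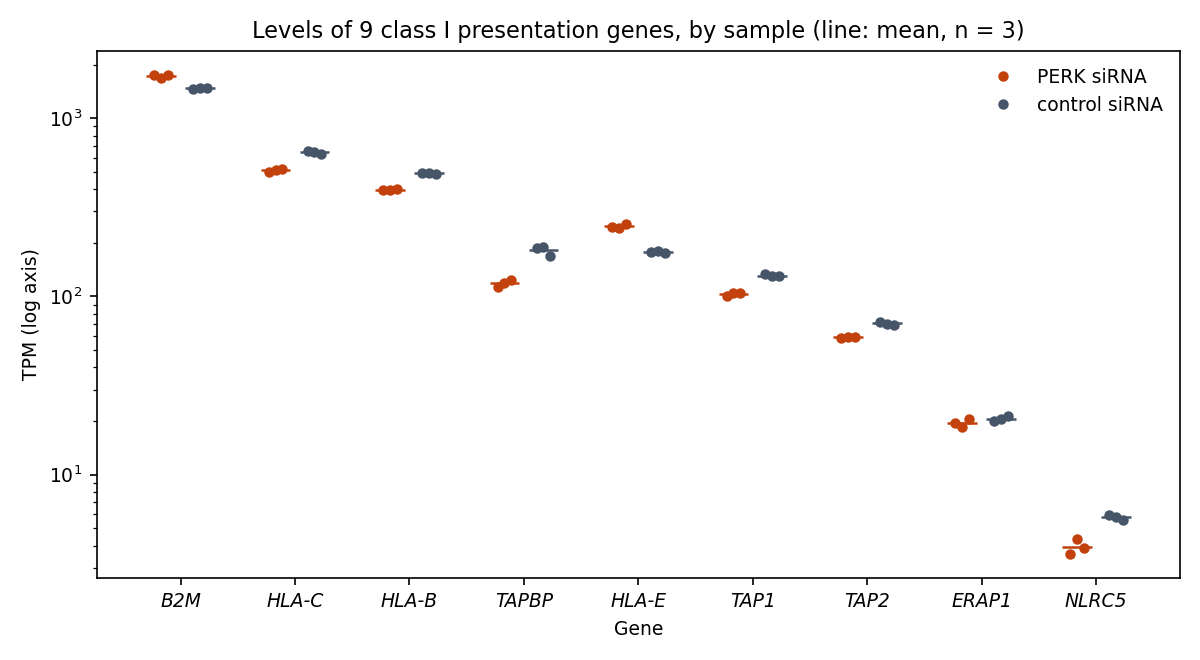
Levels of the 9 genes in TPM, on a log axis, in order of their level in control siRNA samples, with PERK siRNA samples left and control siRNA samples right of each gene. Points are samples and lines mark the mean (n = 3 each). HLA-E and B2M sit higher with PERK siRNA, ERAP1 overlaps between the groups, and the other 6 genes sit lower.

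Among these heavy chains, HLA-C had the highest TPM on the deposited exon lengths. HLA-C (ENSG00000204525; GRCh38, chromosome 6, 31268749 to 31272130, minus strand) had 500, 513 and 518 TPM in PERK siRNA samples, against 659, 644 and 631 TPM in control siRNA samples. Every PERK siRNA sample was below every control siRNA sample. The means were 510.4 ± 9.30 TPM with PERK siRNA and 645 ± 13.9 TPM with control siRNA (SD, n = 3 each), so that 79.5% remained (log2 fold change -0.33, SE 0.026, 95% interval -0.38 to -0.28, adjusted p = 2.2e-12).

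HLA-B (ENSG00000234745; chromosome 6, annotated from 31269491 to 31357188, minus strand) had 396, 394 and 403 TPM in PERK siRNA samples, against 494, 494 and 485 TPM in control siRNA samples. The samples within each group lay close together and the groups were well apart. The means were 398 ± 4.80 TPM with PERK siRNA and 491 ± 5.32 TPM with control siRNA (SD, n = 3 each), with a log2 fold change of -0.30 (SE 0.024, 95% interval -0.35 to -0.25, adjusted p = 4.7e-12). Against a 1.2-fold change HLA-B did not pass (adjusted p = 0.07). The order of HLA-B and HLA-C rests on the exon length: HLA-B had more reads, 6565 to 7172 with PERK siRNA and 8387 to 8946 with control siRNA, where HLA-C had 4060 to 4516 with PERK siRNA and 5367 to 5849 with control siRNA. Of the HLA-B exon bases, 17.8% lie opposite the pseudogene AL671883.2 and 1.15% overlap HLA-C. The deposited exon lengths are 3208 bases for HLA-B and 1573 for HLA-C. GENCODE v29 gives HLA-B 3051 exon bases and HLA-C 2507, and on those lengths HLA-B would have more reads per base. The heavy chain sums, shares and ratios below use the deposited lengths. The ratio of HLA-C to HLA-B, each in TPM, was 1.28 ± 0.0208 with PERK siRNA and 1.31 ± 0.0172 with control siRNA (SD, n = 3 each), and the groups overlapped.

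HLA-E (ENSG00000204592; chromosome 6, 30489467 to 30494205, plus strand) moved the other way. It had 247, 241 and 255 TPM in PERK siRNA samples, against 177, 179.5 and 176 TPM in control siRNA samples. All 3 PERK siRNA samples were above all 3 control siRNA samples, with means of 248 ± 6.81 TPM with PERK siRNA and 178 ± 1.68 TPM with control siRNA (SD, n = 3 each). The rise was 1.40-fold (log2 fold change 0.49, SE 0.029, 95% interval 0.43 to 0.55, adjusted p = 5.3e-15), and it remained past a 1.2-fold change.

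B2M (ENSG00000166710; chromosome 15, 44711487 to 44718877, plus strand) encodes the light chain that all of these heavy chains need. It had 1757, 1689 and 1740 TPM in PERK siRNA samples, against 1466, 1489 and 1472 TPM in control siRNA samples. The groups did not overlap. It was among the most abundant mRNAs of the cells, ranked 47 to 50 by TPM with PERK siRNA and 63 to 68 with control siRNA. The means of 1729 ± 35.5 TPM with PERK siRNA and 1476 ± 11.9 TPM with control siRNA (SD, n = 3 each) gave a 1.18-fold rise (log2 fold change 0.23, SE 0.024, 95% interval 0.19 to 0.28, adjusted p = 7.2e-10), which did not pass against a 1.2-fold change.

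The mix of HLA-B, HLA-C and HLA-E mRNA differed as well as its summed amount, and other heavy chain genes are not counted in it. HLA-E made up 21.6, 21.0 and 21.7% of the summed HLA-B, HLA-C and HLA-E TPM in PERK siRNA samples, against 13.3, 13.6 and 13.6% in control siRNA samples. The groups did not overlap, at 21.4 ± 0.365% with PERK siRNA and 13.5 ± 0.18% with control siRNA (SD, n = 3 each), with a two-sided exact permutation p of 0.10, the smallest that 3 against 3 samples allow. The ratio of HLA-B to HLA-E, each in TPM, was 1.61 ± 0.0254 with PERK siRNA and 2.76 ± 0.0222 with control siRNA (SD, n = 3 each). Summed over the 3 genes, heavy chain mRNA came to 1143, 1149 and 1176 TPM with PERK siRNA, against 1331, 1317 and 1292 TPM with control siRNA, a difference of -157 TPM between means. B2M was 1.54, 1.47 and 1.48 times that sum in PERK siRNA samples, against 1.10, 1.13 and 1.14 times in control siRNA samples (two-sided exact permutation p = 0.10). The p-values of these ratios and of the TAP1 to TAP2 ratio below are a family of 3. Each is the smallest the permutation test allows, and Benjamini-Hochberg adjustment leaves equal values unchanged, here at 0.10.

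In that sum HLA-C made up 44.2 ± 0.49% with PERK siRNA and 49.1 ± 0.378% with control siRNA, and HLA-B 34.4 ± 0.215% with PERK siRNA and 37.4 ± 0.199% with control siRNA (SD, n = 3 each). The non-classical genes HLA-F and HLA-G were scarce, and neither passed the test (adjusted p = 0.063 for HLA-F and 0.46 for HLA-G).

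**Figure D2:**
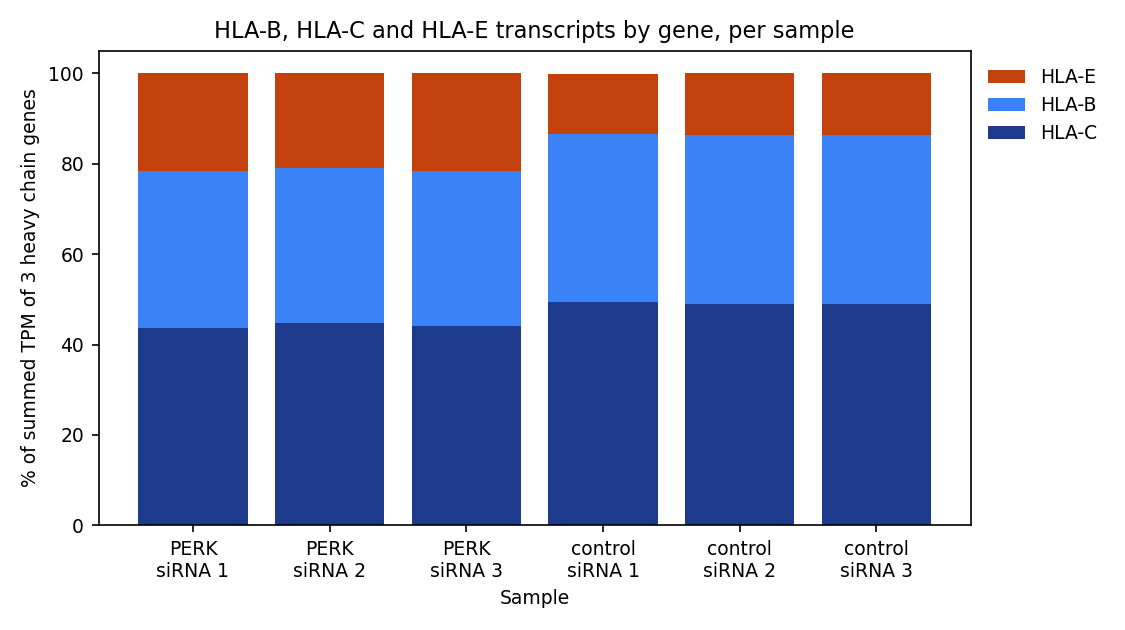
Share of the summed TPM of HLA-B, HLA-C and HLA-E taken by each gene, as stacked bars, 1 bar per sample, with PERK siRNA samples left of control siRNA samples. HLA-E takes 21.0 to 21.7% with PERK siRNA and 13.3 to 13.6% with control siRNA, and the HLA-C and HLA-B parts are smaller with PERK siRNA.

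The calls of HLA-B, HLA-C, HLA-E and B2M held on reads placed uniquely. Of the deposited reads 96.7% were placed uniquely for HLA-B, 91.1% for HLA-C and 94.8% for HLA-E, and all B2M reads were unique. In HLA-E the unique share was 95 to 95.8% with PERK siRNA and 93.6 to 94.2% with control siRNA. Counted on unique reads alone, the log2 fold changes were -0.30 for HLA-B (adjusted p = 1.8e-16), -0.32 for HLA-C (9.8e-17), 0.51 for HLA-E (5.7e-23) and 0.24 for B2M (2.8e-13), by the same edgeR test. Distinct 100-base words of their GENCODE v29 transcripts were sought in protein-coding transcripts of other genes, so pseudogenes were not covered. HLA-B shared 0 of 3440 such words, HLA-C 4 of 3176 and HLA-E 15 of 3056. How far LX-2's own alleles match the reference, and how that bears on placement, was not tested.

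TAP1 and TAP2 form the transporter that pumps peptides from the cytosol into the endoplasmic reticulum. TAP1 (ENSG00000168394; chromosome 6, 32845209 to 32853978, minus strand) had 101, 104 and 104 TPM in PERK siRNA samples, against 133, 130 and 130.3 TPM in control siRNA samples. No sample of one group reached the other. The means were 103 ± 1.95 TPM with PERK siRNA and 131 ± 1.42 TPM with control siRNA (SD, n = 3 each), with a log2 fold change of -0.34 (SE 0.032, 95% interval -0.41 to -0.27, adjusted p = 1.4e-10). A stretch of 9.49% of its exon bases overlaps the opposite-strand gene PSMB8-AS1, and the sources used here do not say whether counting used strand.

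TAP2 (ENSG00000204267; chromosome 6, 32821833 to 32838780, minus strand) had 58.6, 58.9 and 59.6 TPM in PERK siRNA samples, against 72.2, 70.5 and 69.0 TPM in control siRNA samples. The groups did not overlap on total reads, with means of 59 ± 0.484 TPM with PERK siRNA and 70.6 ± 1.62 TPM with control siRNA (SD, n = 3 each) and 84.0% of the control level left (log2 fold change -0.25, SE 0.030, 95% interval -0.31 to -0.19, adjusted p = 1.7e-08). On unique reads the call was lost (log2 fold change -0.07, SE 0.046, adjusted p = 0.15). TAP2 differs from the other members in this respect, since the share of its reads that were unique was only 39.1, 38.4 and 35.4% in PERK siRNA samples and 33.1, 33.5 and 33.2% in control siRNA samples. Its unique reads came to 40.7 ± 1.79 normalised CPM with PERK siRNA and 42.8 ± 0.751 with control siRNA (SD, n = 3 each). The reads not placed uniquely came to 67.3 ± 2.76 normalised CPM with PERK siRNA and 85.8 ± 2.06 with control siRNA (SD, n = 3 each). The groups overlapped in the unique reads and did not in the others.

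The annotation places TAP2 on top of a second protein-coding gene, AL669918.1, on the same strand. Of 6390 exon bases of TAP2, 2064 (32.3%) are also exon bases of AL669918.1, and 1967 of 6486 distinct 100-base words (30.3%) occur in both. Of the 4326 bases that only TAP2 has, 4111 (95%) lie 3′ of the shared part. The tables gave AL669918.1 itself 10, 0 and 16 reads in PERK siRNA samples and 14, 22 and 0 in control siRNA samples. Where along TAP2 the reads that were not unique fell was not analysed here, and which gene they came from was not tested. The TAP1 to TAP2 ratio in TPM was 1.72, 1.77 and 1.75 with PERK siRNA, against 1.84, 1.84 and 1.89 with control siRNA (two-sided exact permutation p = 0.10). The size of this ratio rests on the deposited exon lengths, 2892 bases for TAP1 and 6358 for TAP2. GENCODE v29 gives TAP1 4805 exon bases and TAP2 6390, and on those lengths the ratio would be lower in every sample. TAP1 had fewer reads than TAP2 in every sample. On unique reads the difference in this ratio was -0.937 in place of -0.111. The unique-read ratio still divides by the full exon length of TAP2, though only 35.2% of its reads were unique. It is therefore larger in both groups, and the 2 differences are not on the same scale.

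**Figure D3:**
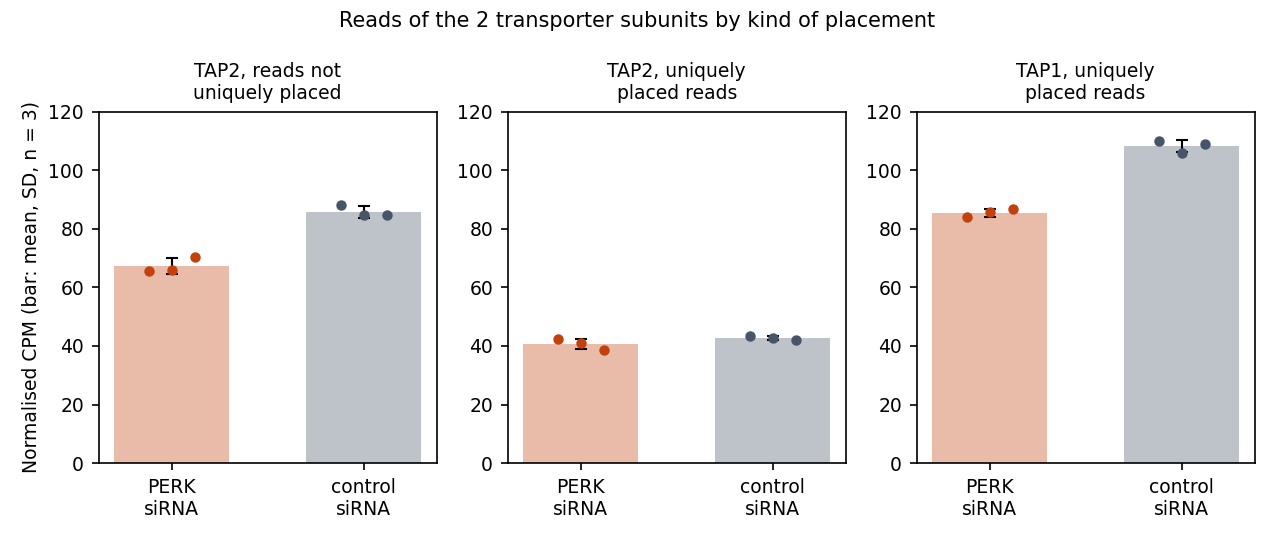
Normalised CPM of TAP2 reads not placed uniquely, of TAP2 unique reads and of TAP1 unique reads, with PERK siRNA left of control siRNA in each panel. Points are samples and bars the mean with its SD (n = 3). TAP2 unique reads average 40.7 CPM with PERK siRNA and 42.8 with control siRNA, while TAP1 unique reads average 85.5 CPM with PERK siRNA and 108 with control siRNA.

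TAPBP fell the most of the 9 genes. It encodes tapasin, which bridges empty class I molecules to TAP and favours tightly bound peptides. TAPBP (ENSG00000231925; chromosome 6, 33299694 to 33314387, minus strand) had 113, 119 and 123 TPM in PERK siRNA samples, against 187, 189 and 169 TPM in control siRNA samples. Control sample 3 was nearest to the PERK siRNA samples but stayed above them. The means were 118 ± 5.11 TPM with PERK siRNA and 182 ± 11 TPM with control siRNA (SD, n = 3 each), leaving 65.5% of the control level (log2 fold change -0.61, SE 0.039, 95% interval -0.70 to -0.52, adjusted p = 5.0e-09).

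NLRC5 (ENSG00000140853; chromosome 16, 56989485 to 57083531, plus strand), the transactivator, was the scarcest. It had 3.59, 4.37 and 3.86 TPM in PERK siRNA samples, against 5.93, 5.80 and 5.55 TPM in control siRNA samples. These levels rest on 161, 212 and 186 reads with PERK siRNA and 291, 267 and 269 with control siRNA, and its standard error is the widest of the 9 genes. The groups did not overlap, and the mean levels were 3.94 ± 0.396 TPM with PERK siRNA and 5.76 ± 0.196 TPM with control siRNA (SD, n = 3 each; log2 fold change -0.54, SE 0.085, 95% interval -0.71 to -0.37, adjusted p = 2.2e-06). Its interval overlaps that of TAPBP.

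ERAP1 (ENSG00000164307; chromosome 5, 96760810 to 96808100, minus strand) trims peptides in the endoplasmic reticulum to the length class I binds. It had 19.6, 18.6 and 20.6 TPM in PERK siRNA samples, against 20.1, 20.4 and 21.2 TPM in control siRNA samples. The groups overlapped. The means were 19.6 ± 0.999 TPM with PERK siRNA and 20.6 ± 0.573 TPM with control siRNA (SD, n = 3 each), and the log2 fold change was -0.06 (SE 0.047, 95% interval -0.16 to 0.03, adjusted p = 0.23), so a fall of more than 0.16 on the log2 scale lies outside the interval. Its adjusted p ran from 0.081 to 1 over the alternatives tried. On the opposite strand CAST, which had 8102 to 9129 reads with PERK siRNA and 7797 to 8269 with control siRNA, overlaps 3.76% of its exon bases. ERAP2, the partner peptidase, chosen here after its values were seen, was higher at 91.8 ± 1.34 TPM with PERK siRNA, against 79.8 ± 1.38 TPM with control siRNA (SD, n = 3 each; log2 fold change 0.21, SE 0.028, adjusted p = 2.0e-07).

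**Figure D4:**
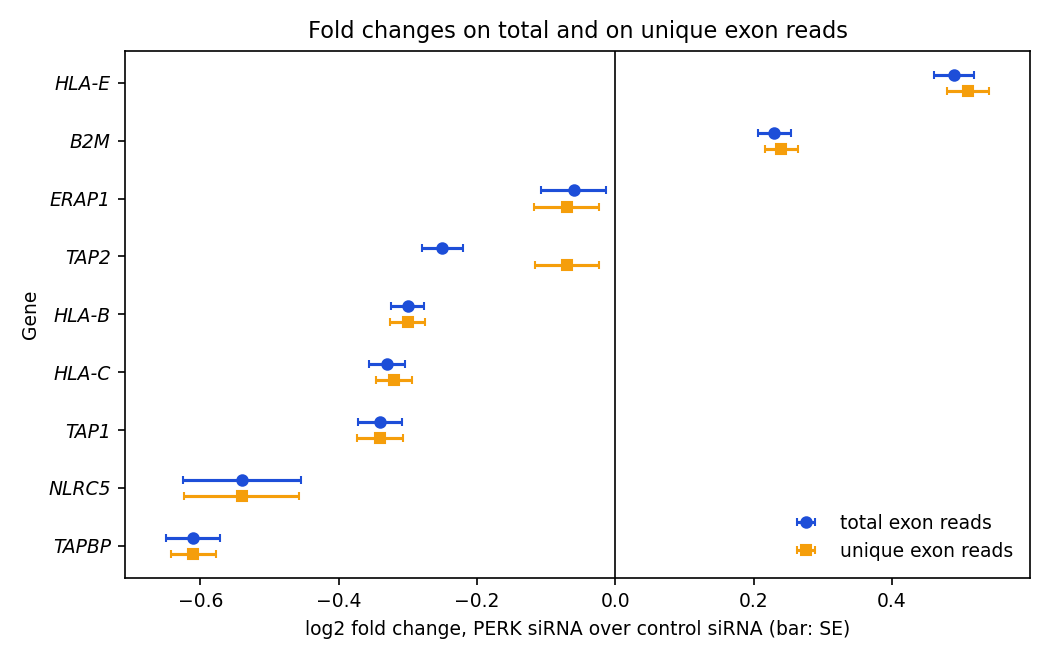
Log2 fold change, PERK siRNA over control siRNA, of the 9 genes on total exon reads (circles) and unique exon reads (squares), with bars for the SE of edgeR's quasi-likelihood fit. The pairs lie close together in 8 genes, and in TAP2 the value is -0.25 on total and -0.07 on unique reads.

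By TPM on deposited lengths, the descending order in control siRNA samples was B2M, HLA-C, HLA-B, TAPBP, HLA-E, TAP1, TAP2, ERAP1 and NLRC5. TAPBP at 169 to 189 TPM and HLA-E at 176 to 179.5 TPM overlapped there. With PERK siRNA HLA-E stood above TAPBP, the genes having 241 to 255 TPM and 113 to 123 TPM, and no neighbours in the order overlapped. Of the 9 genes 6 lie on chromosome 6 between HLA-E and TAPBP (30489467 to 33314387, 2.82 Mb). Among the 82 other tested genes of that stretch 24 (29.3%) were higher and 32 (39.0%) lower, with a median log2 fold change of -0.10, where 34.4% of all tested genes were higher and 35.0% lower.

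A further 129 genes of antigen presentation were listed in 11 groups by role, of which 126 were in the tables and 103 were tested. Of these 29 were higher, 51 lower and 23 did not pass, with a median log2 fold change of -0.09. Each list's counts below stand against the 34.4% of all tested genes called higher and the 35.0% called lower, the median over all tested genes being 0.004. Named genes are those with the smallest adjusted p of each list unless said otherwise, and levels are mean TPM ± SD (n = 3 each).

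The chaperones of peptide loading were split, with 6 of 14 higher, 5 lower and 3 not passing (median log2 fold change 0.05). CANX, calnexin, which folds new heavy chains, was at 454 ± 6.94 TPM with PERK siRNA and 219 ± 0.522 TPM with control siRNA (log2 fold change 1.06, SE 0.023, adjusted p = 1.9e-25). CALR, calreticulin, which holds the loading-ready chain, was at 1976 ± 24.2 TPM with PERK siRNA and 2429 ± 14.9 TPM with control siRNA (log2 fold change -0.29, SE 0.023, adjusted p = 2.0e-12). PRKCSH, a glucosidase subunit that trims the glycans both chaperones read, was at 499 ± 5.46 TPM with PERK siRNA and 330 ± 2.91 TPM with control siRNA (log2 fold change 0.60), and SEC61A1, the translocon channel, was lower (log2 fold change -0.29). PDIA3, the disulphide partner of tapasin, chosen after its values were seen, was also lower (log2 fold change -0.14, adjusted p = 1.6e-05).

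Peptide supply moved in both directions. Of 7 cytosolic and endosomal peptidases 1 was higher, 3 lower and 3 did not pass (median 0.01). BLMH, bleomycin hydrolase, a cytosolic aminopeptidase, was at 50.6 ± 1.17 TPM with PERK siRNA and 127 ± 1.66 TPM with control siRNA (log2 fold change -1.33, SE 0.039, adjusted p = 1.6e-22). TPP2, which cuts long proteasome products, was higher (log2 fold change 0.55), while LAP3 and LNPEP were lower (-0.25 and -0.17). In the immunoproteasome and its activators 2 of 8 were higher, 4 lower and 2 did not pass (median -0.06). PSMB8, an inducible catalytic subunit, was at 109.6 ± 2.35 TPM with PERK siRNA and 129 ± 1.77 TPM with control siRNA (log2 fold change -0.23, adjusted p = 9.6e-06). PSME1, an activator cap subunit, was higher (0.18), and the other caps PSME3 and PSME4 were lower (-0.14 and -0.40). PSMB9, the neighbour that starts back to back with TAP1, chosen after its values were seen, was slightly higher (log2 fold change 0.11, adjusted p = 0.016). All 3 constitutive catalytic subunits that the inducible ones replace were lower, with log2 fold changes of -0.15 for PSMB5, -0.18 for PSMB6 and -0.30 for PSMB7.

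Regulators of class I transcription were mixed, with 5 of 15 higher, 7 lower and 3 not passing (median -0.09). IRF1, which binds interferon response elements of class I genes, was at 38.8 ± 1.35 TPM with PERK siRNA and 58.6 ± 0.783 TPM with control siRNA (log2 fold change -0.59, SE 0.038, adjusted p = 3.3e-14). ATF1, one of the X2 box binding factors, was at 29.7 ± 1.29 TPM with PERK siRNA and 63.7 ± 1.09 TPM with control siRNA (log2 fold change -1.09, adjusted p = 5.7e-18). RFX5, a subunit of the X box complex, and RELA, an NF-κB subunit, were higher (log2 fold change 0.33 and 0.49, adjusted p = 1.3e-09 and 3.3e-15). Among interferon receptors and JAK-STAT genes 2 of 13 tested were higher, 7 lower and 4 did not pass (median -0.08). SOCS1, which brakes JAK signalling, was at 10.6 ± 1.12 TPM with PERK siRNA and 54.5 ± 4.72 TPM with control siRNA (log2 fold change -2.35, SE 0.089, adjusted p = 2.9e-19). IFNGR2, a chain of the interferon gamma receptor, and PTPN2, a phosphatase of JAK and STAT proteins, were lower (-0.60 and -0.46), and IRF9, a transcription factor of interferon signalling, was higher (0.77), with 12.4% of its reads placed uniquely. IFNB1 and IFNG had no reads in any sample.

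Of 16 genes listed for the regulation or turnover of class I molecules 3 were higher, 12 lower and 1 did not pass, with a median log2 fold change of -0.30, where 34.4% of all tested genes were higher and 35.0% lower. B3GNT5, which makes the glycolipids that shield class I at the surface, was at 1.04 ± 0.161 TPM with PERK siRNA and 6.97 ± 0.430 TPM with control siRNA (log2 fold change -2.74, adjusted p = 1.7e-16). TMEM127 and WWP2, which act together to send class I molecules to degradation, were lower by log2 fold changes of -0.38 and -0.54, and EZH2, the enzyme that lays down repressive H3K27 methylation at class I pathway genes, was lower too (-0.55). SUSD6, the third partner of TMEM127 and WWP2, chosen after its values were seen, was higher (0.47, adjusted p = 5.9e-09).

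Class I-like molecules and the stress ligands of NKG2D, a receptor of killer cells, were mixed. Of the class I-like molecules 13 of 16 listed were in the tables and 7 were tested, of which 4 were higher, 1 lower and 2 did not pass (median 0.23). MR1, which shows vitamin B metabolites to MAIT cells, was at 4.46 ± 0.104 TPM with PERK siRNA and 1.34 ± 0.0488 TPM with control siRNA (log2 fold change 1.74, SE 0.11, adjusted p = 5.4e-14). HFE, an iron regulator, and FCGRT, the neonatal Fc receptor chain, both of which pair with beta-2 microglobulin, were higher (0.75 and 0.98), and PROCR, the endothelial protein C receptor, which does not pair with it, was lower (-0.75). The 7 tested NKG2D ligands had 2 higher, 3 lower and 2 that did not pass (median -0.11). MICA was at 23.4 ± 0.322 TPM with PERK siRNA and 46.5 ± 1.08 TPM with control siRNA (log2 fold change -0.99, SE 0.055, adjusted p = 8.2e-16), and MICB was lower (-0.31). ULBP1 and ULBP3 were higher (0.81 and 0.59).

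**Figure D5:**
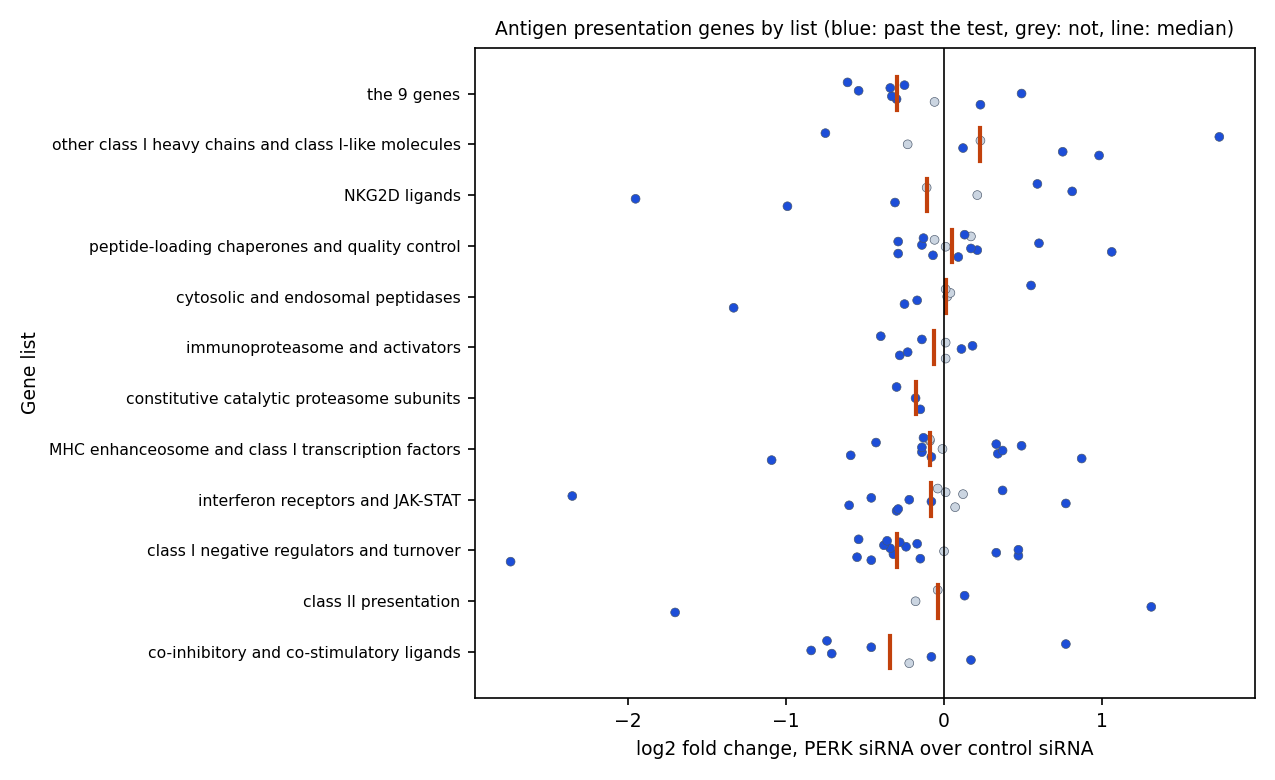
Log2 fold change, PERK siRNA over control siRNA, of each tested gene, 1 point per gene, by list, with the 9 genes in the top line. Blue points passed edgeR's quasi-likelihood test at an adjusted p of 0.05, grey ones did not, and the bar is the list's median. The medians run from -0.34 to 0.23.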

How the data were processed

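RNA was sequenced from 6 LX-2 samples, 3 per siRNA, grouped by title. Per the labels' protocols, RNA was column purified and libraries kept strand. Per the submitters' processing notes reads were processed on hg38, and the sources used here name no aligner, counter, annotation release or strand setting. Per the file headers, the authors deposited counts of total exon reads and of unique exon reads for each gene, and TPM, which equalled reads per exon length to within a relative difference of 7.1e-08.

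Total exon reads were tested as deposited with edgeR 4.0.16 (R 4.3.3): TMM factors, the default filter, robust quasi-likelihood fits, no covariate and Benjamini-Hochberg adjustment over 12973 genes at 0.05. SE is the log2 fold change over the root of F. On simulated counts, 28 of 50 genes changed 1.2-fold and 44 of 50 changed 1.5-fold were recovered, and 7 of 12773 unchanged genes were called. Those counts left 12773 of 12973 genes unchanged, while the samples themselves gave 9014 calls among 12973 genes (69.5%). Recovery with so large a share of genes changed was not tested. Replicates differed by more than counting noise (chi-square per degree of freedom 1.65 to 2.31), so none was taken for a copy of another. The members, the lists and the tests were chosen with earlier results of these data known. Named genes are the members, EIF2AK3, other heavy chain genes and up to 4 genes per list with the smallest adjusted p. Some genes that the rule takes, and an alternative that needs one, are not reported here.

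Places and transcripts came from GENCODE v29 (GRCh38) and promoters from RefSeq, read in Python 3.11.15 with Biopython 1.88. Alternatives were other scaling factors or filters, DESeq2 1.42.0, limma-voom (limma 3.58.1), non-robust dispersion, unique reads, a test against a 1.2-fold change, a threshold of 0.01, a replicate block and leaving out each sample.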

Additional observations from a re-analysis of the deposited data

How the results depend on the processing

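Over 17 alternatives for each of the 9 genes, 149 of 153 values kept the call and the direction of the test on total reads, and 0 reversed. The exceptions were HLA-B, B2M and TAP2 against a 1.2-fold change (adjusted p = 0.07, 1 and 0.68) and TAP2 on unique reads (log2 fold change -0.07, adjusted p = 0.15), by edgeR's quasi-likelihood test. Against a 1.2-fold change 1 of the 9 genes was higher in place of 2 and 4 were lower in place of 6, since that test asks for a larger change. Of the 103 other antigen presentation genes tested, 18 were higher in place of 29 and 23 lower in place of 51. Of all tested genes 18.1% were then called in each direction. Leaving out each sample in turn kept 2 genes higher and 6 lower. Among the other genes it gave 26 to 28 higher and 47 to 52 lower, where 32.0 to 32.7% of all tested genes were higher and 33.1 to 33.8% lower. The difference in the summed TPM of HLA-B, HLA-C and HLA-E was -168 to -149, and the HLA-E share difference 7.78 to 8.11 percentage points. The TAP1 to TAP2 difference was then -0.121 to -0.0943, and the B2M ratio difference 0.351 to 0.384. With the replicate number as a block, 2 of the 9 genes were higher and 6 lower, and the other genes gave 29 higher and 51 lower. Of all tested genes 34.4% were then higher and 35.0% lower. Same-numbered samples deviated together with correlations of 0.0106, -0.0323 and -0.0294, so the numbers were not taken as pairs. Depth limits NLRC5 most, at 161 to 291 reads per sample.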

Other observations

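Most class II presentation genes were at or near 0 reads. Of 14 listed genes 5 passed the filter, with 2 higher, 1 lower and 2 not passing in PERK siRNA samples. HLA-DRA had 1, 0 and 0 reads with PERK siRNA and 0, 0 and 2 with control siRNA, and CD74, the invariant chain, had 14, 9 and 15 with PERK siRNA and 7, 7 and 5 with control siRNA. HLA-DPB1 was at 25.9 ± 1.23 TPM with PERK siRNA and 23.8 ± 0.607 TPM with control siRNA (n = 3 each, SD), for a log2 fold change of 0.13 with adjusted p = 0.034 by edgeR, and HLA-DPA1, its partner chain, did not pass (log2 fold change -0.18, adjusted p = 0.054). HLA-DMA, which helps load class II, was at 2.84 ± 0.397 TPM with PERK siRNA and 1.14 ± 0.166 TPM with control siRNA (n = 3 each, SD), for a log2 fold change of 1.31 with adjusted p = 8.2e-04, and CTSS, the protease that cuts the invariant chain, at 1.43 ± 0.210 TPM with PERK siRNA and 4.66 ± 0.522 TPM with control siRNA (n = 3 each, SD), for a log2 fold change of -1.70 with adjusted p = 1.5e-11. The class II transactivator gene CIITA, chosen after its values were seen, had 47, 57 and 55 reads with PERK siRNA and 25, 36 and 27 with control siRNA. It was higher (log2 fold change 0.87, SE 0.21, adjusted p = 4.7e-04 by edgeR) at a very low level. Its means were 0.523 ± 0.0308 TPM with PERK siRNA and 0.288 ± 0.0678 TPM with control siRNA (n = 3 each, SD).

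Of 8 tested ligands that restrain or help T and killer cells 2 were higher, 5 lower and 1 did not pass with PERK siRNA (median log2 fold change -0.34), where 34.4% of all tested genes were higher and 35.0% lower. PDCD1LG2, a ligand of PD-1, was at 15.3 ± 0.756 TPM with PERK siRNA and 8.97 ± 0.899 TPM with control siRNA (n = 3 each, SD), for a log2 fold change of 0.77 with adjusted p = 9.0e-08 by edgeR. PVR and NECTIN2, which bind TIGIT and DNAM-1, were lower (-0.74 and -0.46), as was the adhesion molecule ICAM1 at 8.09 ± 0.472 TPM with PERK siRNA and 14.5 ± 1.11 TPM with control siRNA (n = 3 each, SD), for a log2 fold change of -0.84 with adjusted p = 7.2e-09. CD274, the other PD-1 ligand, chosen after its values were seen, did not pass (log2 fold change -0.22, adjusted p = 0.056).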
